A study of Mus musculus with 4 samples.

Results

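The genes described here activate, inactivate, carry and sense thyroid hormone in the brain. They are 8 of the 20793 gene rows of a brain RNA-seq table, each on 1 row: the deiodinase genes Dio2 and Dio3, the transporter gene Slco1c1, the binding protein gene Crym, the receptor genes Thra and Thrb, and the hormone-responsive genes Hr and Klf9. They were chosen by name as members of the pathway after the Dio2 FPKM values had been seen to be lower in both knockout libraries. All differences between knockout and wild type in these 8 genes are therefore given as descriptions with no test.

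The thyroid gland releases mainly thyroxine, a precursor that has to cross into the brain and lose an iodine to become the active hormone triiodothyronine. Type 2 deiodinase, made mainly in astrocytes and tanycytes, performs this step, whereas type 3 deiodinase, made largely in neurons, inactivates both forms. The active hormone enters the nucleus and binds receptors that sit on DNA, mostly together with retinoid X receptors, and it sets the timing of neuronal maturation and myelination around birth.

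RNA of newborn mouse brain (postnatal day 1) was measured in 4 libraries, 2 of wild-type (WT) brain and 2 of brain with a knockout of CIC (capicua), a transcriptional repressor controlled by ERK signalling. The knockout libraries came from Nes-Cre;CIClox/lox animals, in which Cre driven by Nestin regulatory sequence acts in neural progenitors, so vessels, meninges and blood are largely outside its reach. The labels of the WT libraries conflict: the genotype field gives Nes-Cre;CIC+/+ and the titles describe floxed animals without Cre. Libraries carry the letters A and B in each group, nothing says that they came from separate animals, and the spread between them may be technical.

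Values are FPKM, fragment numbers normalised to transcript length and library size, so levels can be compared between genes. Total depth is unknown, and no counting interval can be given. Cic itself averaged 53.8 ± 3.57 FPKM over the WT libraries and 20.7 ± 2.24 over the knockouts (SD, n = 2 per group); the deleted exons are not stated in the labels. The knockout libraries differed more from each other than the WT libraries did, with a median absolute difference over 12703 genes of 0.19 against 0.067 in log2(FPKM + 1). In bulk brain RNA, fewer cells of a type and less RNA per cell cannot be told apart.

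Dio2, the activating enzyme, was lower in both knockout libraries. The gene row (mm9, chromosome 12, 91962992 to 91976878) read 4.05 FPKM in WT A, 4.03 in WT B, and 1.93 and 1.63 in knockouts A and B. The WT libraries were nearly equal, and the knockout libraries lay close together below them with no overlap. The mean of 4.04 ± 0.0141 FPKM for WT stood against 1.78 ± 0.217 for the knockout (SD, n = 2 per group), 44.0% of the WT level. In log2(FPKM + 1), the scale of all log2 differences here, the difference was -0.86 ± 0.10 (SE), and this scale understates changes of low genes. With a pseudocount of 0.1 it was -1.14. Of 10 astrocyte markers, 8 lay above both WT libraries and 1, Sox9, below both in knockout A. For knockout B, 6 lay above and 3 below. Among all genes tested, the share below both WT libraries was 37.0% for knockout A and 41.3% for knockout B. A matching share above was not computed for either library, and nothing is read from the number of markers above. Aldh1l1, above both WT libraries in each knockout, had 21.4 and 21.3 FPKM in the WT pair against 25.5 and 25.6 in the knockouts. Slc1a3, among the 3 below in knockout B, had 75.9 and 77.3 FPKM in the WT pair, and 76.8 and 61.0 in knockouts A and B. The part of astrocytes in the Dio2 difference was not tested.

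The sequence before the Dio2 start site is shown because cAMP signalling is known to induce this gene in brown fat. RefSeq places the 250 bases before the start at chr12:90739039-90739288 on the minus strand (GRCm38.p6), printed 5′ to 3′ with the cAMP response element TGACGTCA in capitals, at positions -95 to -88 from the start.
Dio2 upstream: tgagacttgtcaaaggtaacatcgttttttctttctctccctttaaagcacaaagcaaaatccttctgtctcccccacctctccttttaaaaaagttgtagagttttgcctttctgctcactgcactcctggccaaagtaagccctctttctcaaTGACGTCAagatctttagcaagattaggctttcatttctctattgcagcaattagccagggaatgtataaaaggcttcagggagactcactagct
This element was in 1.79% of the 32851 windows of the RefSeq promoter table, each reaching from 250 bases before to 50 bases after a start.

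CIC is known to bind DNA at short octamers, and its letters TGAATGAA, TGAATGGA, TCAATGAA and TCAATGGA were searched on both strands. None of the 6 windows of Dio2, Dio3, Slco1c1, Thrb and Klf9 held them, against 3.84% of all windows. The nuclear receptor hexamer AGGTCA, which lies in thyroid hormone response elements, was found in 1 of the 6 windows, the upstream one of Thrb, and in 16.3% of all windows. Hexamers repeated with a spacer of 4 bases, the arrangement thyroid hormone receptors prefer, were in 0 of these 6 and 0.0152% of all. These are matches of letters within a short window, not sites of binding. Thra, Hr and Crym were not matched.

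Dio3, the inactivating enzyme and an imprinted gene expressed from the paternal copy, was high in 1 knockout library. Dio3 (mm9, chromosome 12, 111517440 to 111519307) read 1.95 FPKM in WT A, 1.32 in WT B, and 4.48 and 1.63 in knockouts A and B. Knockout A lay above the other libraries, and knockout B lay between the WT libraries. The mean of 1.64 ± 0.444 FPKM for WT stood against 3.05 ± 2.02 for the knockout (SD, n = 2 per group), with a log2 difference of 0.53 ± 0.38 (SE) that was 1.07 without knockout B and 0.0038 without knockout A.

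The deiodinase transcripts stood in a different ratio in the knockouts. The ratio of Dio2 to Dio3 FPKM was 2.07 in WT A, 3.04 in WT B, and 0.431 and 0.999 in knockouts A and B. Dio2 was thus the more abundant of the pair in both WT libraries, was less abundant than Dio3 in knockout A and about equal to it in knockout B. Dio2 values entered the choice of these genes, so the ratio carries no test.

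**Figure D1:**
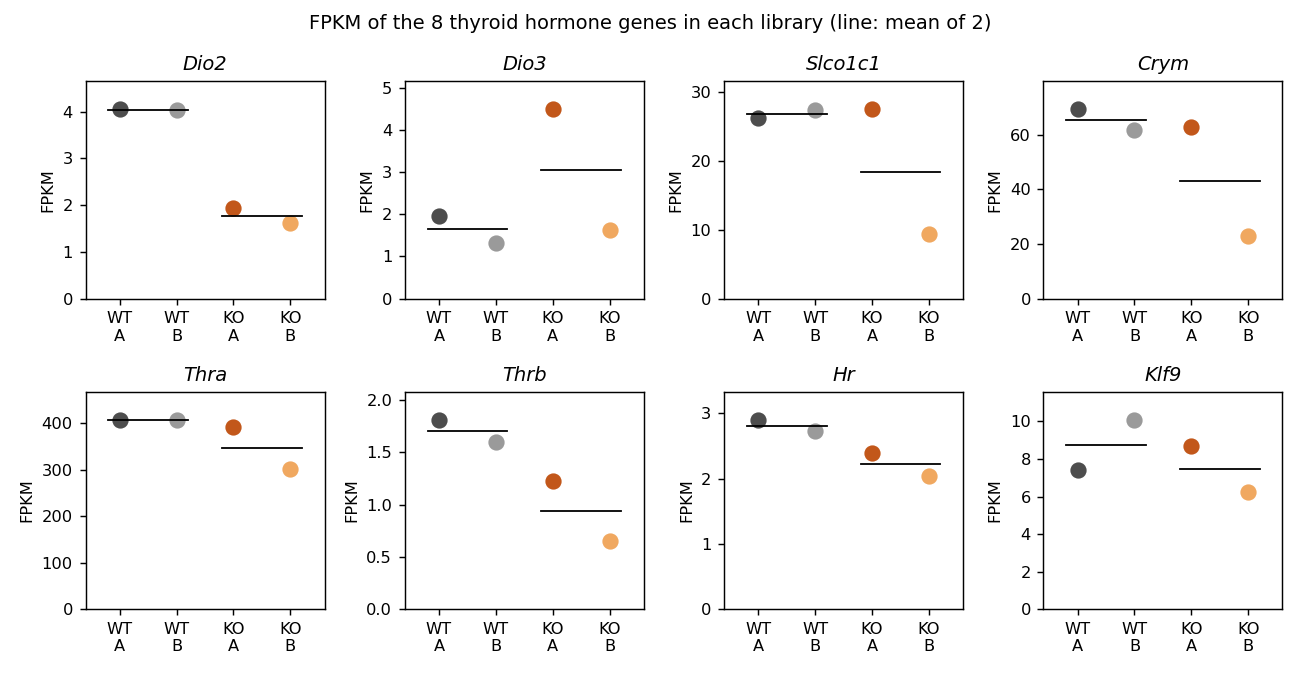
FPKM (vertical axes, each starting at 0) of the 8 genes in WT A, WT B, knockout (KO) A and knockout B; each point is 1 library and each line the mean of 2. Dio2 lies at 4.05 and 4.03 FPKM in WT and at 1.93 and 1.63 FPKM in knockout brain, whereas Slco1c1 and Crym are low in knockout B and at the WT level in knockout A.

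Slco1c1, a thyroxine transporter of brain capillaries and, in mice, astrocytes, was low in knockout B and not in knockout A. The gene row (mm9, chromosome 6, 141472907 to 141518698) read 26.3 FPKM in WT A, 27.4 in WT B, and 27.4 and 9.39 in knockouts A and B. Knockout B stood at 35.0% of the WT mean and knockout A at 102%. The log2 difference was -0.70 ± 0.49 (SE), and without knockout B it was 0.031.

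Markers of the cells that hold Slco1c1 lay on both sides of WT in knockout B. The summed level of 11 endothelial markers was 141 and 197 FPKM in the WT pair, and 203 and 184 in knockouts A and B. Cldn5, a tight junction gene of brain capillaries, had 50.2, 60.2, 59.5 and 52.1 FPKM in the same order. Most of the gap between the WT sums came from Slc2a1, which had 26.3, 60.7, 64.8 and 59.0 FPKM in that order. In knockout B 2 of the 11 lay below both WT libraries, Kdr at 86.6% and Mfsd2a at 87.1% of the WT mean, and 3 above. Of all genes tested, 41.3% lay below both WT libraries in knockout B. The summed level of 10 astrocyte markers was 249 and 255 FPKM in the WT pair, and 285 and 255 in knockouts A and B. The 3 astrocyte markers below both WT libraries in knockout B were Slc1a3 at 79.7%, Gfap at 84.2% and Slc1a2 at 92.0% of the WT mean. The part of these cells in the Slco1c1 difference was not tested.

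Crym encodes mu-crystallin, a cytosolic protein that binds triiodothyronine, and was likewise low in knockout B alone. Crym (mm9, chromosome 7, 127329898 to 127345502) read 69.2 FPKM in WT A, 61.5 in WT B, and 62.9 and 22.8 in knockouts A and B. Knockout A lay between the WT libraries, and knockout B stood at 34.9% of the WT mean. The log2 difference was -0.76 ± 0.48 (SE) over all libraries and -0.052 without knockout B.

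Crym is also expressed by neurons of the cerebral cortex, and cortical markers were also lowest in knockout B. The summed level of 8 markers of cortical excitatory neurons was 558 and 587 FPKM in the WT pair, and 428 and 252 in knockouts A and B, and 7 of the 8 read lower in each knockout than in any WT library, against 21.7% of all genes tested. Slc17a7, the vesicular glutamate transporter gene of that list, had 45.4 and 50.3 FPKM in the WT pair, and 42.2 and 10.4 in knockouts A and B. The part of these cells in the Crym difference was not tested.

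Thra, which encodes thyroid hormone receptor alpha, was by far the most abundant of the 8 genes. The gene row (mm9, chromosome 11, 98603187 to 98626425) read 406 FPKM in either WT sample, and 392 and 302 in knockouts A and B. Both knockout libraries lay below both WT libraries, knockout A at 96.7% of the WT mean and knockout B at 74.5%. The log2 difference was -0.24 ± 0.15 (SE), and -0.048 without knockout B. The table has 1 Thra row and gives no split between the hormone-binding receptor and its non-binding splice form. No other row overlapped it, and the nearest, Nr1d1, the gene of a circadian repressor, lay 2823 bases away. Whether the libraries kept strand is not stated in the labels.

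Thrb, the gene of receptor beta, was present at a small fraction of the Thra level. Thrb (mm9, chromosome 14, 18493474 to 18870602) read 1.81 FPKM in WT A, 1.60 in WT B, and 1.23 and 0.651 in knockouts A and B. Both knockout libraries lay below both WT libraries, at 72.1% and 38.2% of the WT mean, with a log2 difference of -0.49 ± 0.17 (SE). This was -0.28 without knockout B and -0.71 without knockout A, and -0.85 with a pseudocount of 0.1. Of the summed receptor FPKM, Thra took 99.6% in either WT sample and 99.7% and 99.8% in the knockouts. The ratio of Thra to Thrb FPKM was 225 and 253 in the WT pair against 319 and 465 in the knockouts.

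Hr encodes hairless, a corepressor that binds thyroid hormone receptors and whose own gene is induced by the hormone in rodent brain. The gene row (mm9, chromosome 14, 70953863 to 70973349) read 2.90 FPKM in WT A, 2.73 in WT B, and 2.40 and 2.05 in knockouts A and B. Both knockout libraries lay below both WT libraries, with the mean at 79.0% of the WT mean and a log2 difference of -0.24 ± 0.10 (SE).

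Klf9, a Krüppel-like factor gene that the hormone also induces, did not separate the groups. Klf9 (mm9, chromosome 19, 23215716 to 23241401) read 7.42 FPKM in WT A, 10.1 in WT B, and 8.70 and 6.22 in knockouts A and B. Knockout A lay between the WT libraries and knockout B below both. The log2 difference was -0.21 ± 0.21 (SE), less than the 0.39 between the WT libraries, and it was 0.0076 without knockout B and -0.0084 without WT B.

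**Figure D2:**
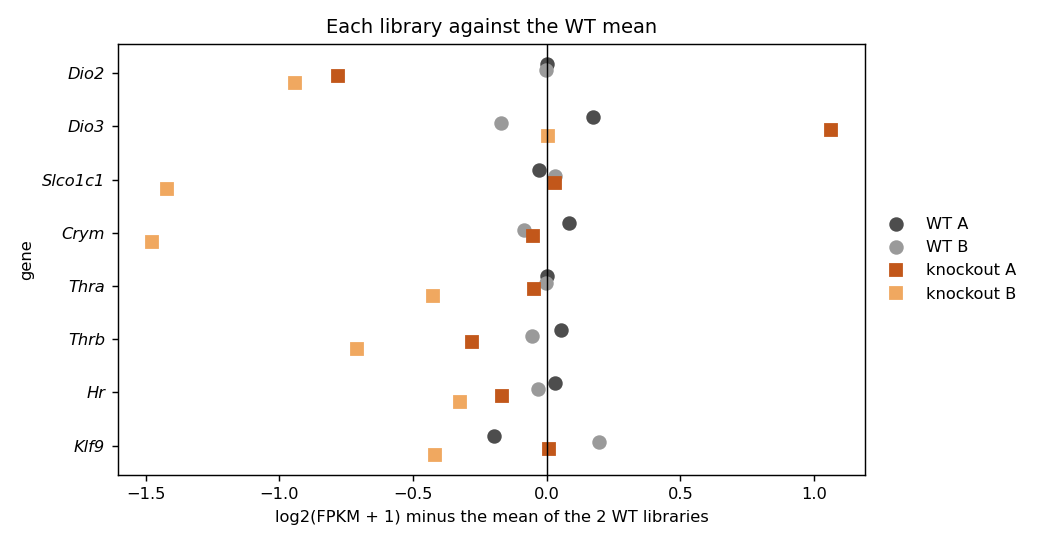
Each library's log2(FPKM + 1) minus the mean of both WT libraries (horizontal axis) for each of the 8 genes (rows, with the libraries shifted slightly up and down for clarity). Dio2 is the gene for which the knockout libraries lie together and far from WT, at -0.78 and -0.94, whereas Crym lies at -0.052 in knockout A and at -1.48 in knockout B.

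The levels of the 8 genes spanned a wide range. In WT brain the mean was 406 ± 0.469 FPKM for Thra, 65.3 ± 5.42 FPKM for Crym, 26.8 ± 0.823 FPKM for Slco1c1, 8.74 ± 1.87 FPKM for Klf9, 4.04 ± 0.0141 FPKM for Dio2, 2.81 ± 0.119 FPKM for Hr, 1.70 ± 0.144 FPKM for Thrb and 1.64 ± 0.444 FPKM for Dio3 (SD, n = 2 each). Thrb and Dio3 overlapped in WT, and the other neighbours in this order did not. Thra, Crym, Slco1c1 and Klf9 held places 1 to 4 in each of the 4 libraries. Dio2 took place 5 of the 8 in both WT libraries and place 7 in both knockouts, while Dio3 took place 5 in knockout A. Among all 20793 rows, Thra ranked between 135 and 184, and Thrb between 11643 and 13431.

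Over the 8 genes, the knockout libraries were on the lower side. In 7 of the 8 the log2 difference was below 0, with a median of -0.37 against 0.017 over the 12703 genes tested, of which 46.4% lay below 0. Both knockout libraries lay below both WT libraries in 4 genes (Dio2, Thra, Thrb and Hr), a pattern held by 21.7% of all genes tested. In 0 of the 8 did both lie above both WT libraries, against 27.1% of all genes. Knockout B was the lower knockout library in 8 of 8, against 48.3% of all genes, and lay below both WT libraries in 7, against 41.3%. Knockout A lay below both WT libraries in 4, against 37.0%. These contrasts entered the choice of the genes, and nothing is read from the counts.

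Genes with a pattern close to that of Dio2 over the 4 libraries came from several families. The 5 closest by root mean square distance in log2(FPKM + 1), each gene centred on its own mean, were Inhba, Nfix, Nr4a3, Osbpl1a and Ntsr1, at distances of 0.056 to 0.096. Inhba, an activin subunit gene, had 4.35 and 3.82 FPKM in the WT pair against 1.84 and 1.61 in the knockouts. Nfix, a nuclear factor I transcription factor gene, had 195 and 198 FPKM in the WT pair against 116 and 113 in the knockouts, and Nr4a3, an orphan nuclear receptor gene, had 22.4 and 22.0 FPKM in the WT pair against 14.6 and 11.99 in the knockouts. Such likeness over 4 libraries is a description of these libraries.

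Cell type markers placed the libraries in the brain and differed between the groups. Tubb3, the neuronal tubulin gene, ran from 1249 to 1434 FPKM, and the pituitary hormone genes Gh and Prl were listed at 0 in all libraries. Of 9 hypothalamic markers 8 read higher in each knockout than in any WT library, against 27.1% of all genes tested, although only 4 of the 9 passed the filter on low values. Their summed level was 5.65 to 10.7 FPKM in WT and 34.3 to 37.5 FPKM in knockout brain, with Oxt and Otp listed at 0 in WT B. Avp was the largest part of the sum in both knockouts, with 16.3 and 16.2 FPKM, and differed between WT A and WT B, with 4.36 and 0.281 FPKM. The choroid plexus list had 5 of 6 above, summing to 20.9 to 37.4 FPKM in WT and 48.9 to 69.8 FPKM in knockout brain, and the meningeal list 3 of 7, summing to 62.4 to 87.5 FPKM and 104 to 105 FPKM. Of the 10 astrocyte markers 5 were above in both knockouts and 0 below in both. The tanycyte list of 5 genes summed to 72.6 and 71.2 FPKM in the WT pair and 48.9 and 56.3 in knockouts A and B, nearly all of it from Lhx2, which cortical progenitors also express (68.1 and 65.7 against 42.9 and 51.4 FPKM). Its defining marker Rax was listed at 0 in 3 libraries and at 0.198 FPKM in knockout B. Blood markers summed to 194 and 129 FPKM in the WT pair, and 9.26 and 702 in knockouts A and B. Both rows of the globin gene Hba-a1 were listed at 0 in knockout A, so nearly all of its sum was Alas2, a haem synthesis gene of red cell precursors, with 8.88 and 5.76 FPKM in the WT pair, and 9.25 and 40.1 in knockouts A and B. The part of these cells in the values of the 8 genes was not tested.

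**Figure D3:**
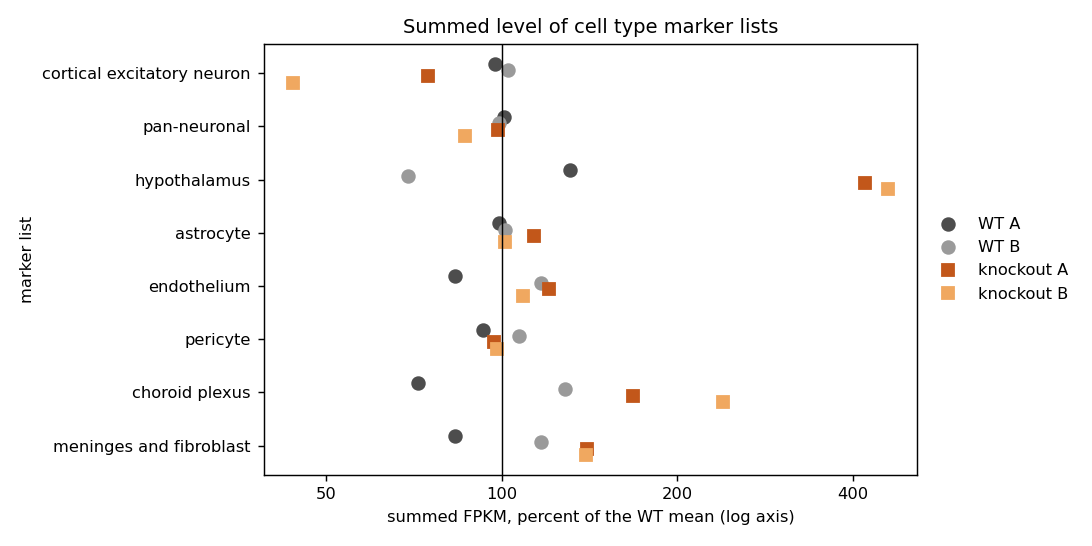
Summed FPKM of each marker list in each library as a percent of the mean of both WT libraries (horizontal log axis; rows are lists, libraries shifted slightly up and down). Cortical neuron markers lie at 74.8% and 44.0% in knockout A and B, whereas astrocyte markers lie at 113% and 101.5%, and hypothalamic markers at 419% and 458%.

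Beyond these 8 genes, 61 further genes of the pathway in 7 lists were examined, of which 51 passed the filter on low values (mean FPKM of 1 or more). Limma called 0 of the 51, the lowest adjusted p being 0.400, against 0.0472% of all genes. At an unadjusted p under 0.05 there were 5 of the 51, against 10.2% of all genes. Their median log2 difference was 0.041, and both knockout libraries lay below both WT libraries in 14 and above both in 12 (21.7% and 27.1% of all genes). With knockout B left out 0 were called, against 0.213% of all genes, and with knockout A left out 24 were called, against 33.9% of all genes. Slc7a5, Slc7a8, Slc16a10, Eefsec, Rxrg, Ncoa3, Nrgn, Sema7a, Dab1 and Trh, described next, were among the 24. The single knockout library in each of these fits is assumed to vary like the WT pair.

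The other hormone transporters gave no common direction. Of 8 tested transporters and carriers 3 lay above both WT libraries and 1 below, against 27.1% and 21.7% of all genes tested. The amino acid transporter gene Slc7a5, which carries thyroid hormone as well, had 60.2 and 65.7 FPKM in the WT pair against 70.2 and 115 in the knockouts (limma's adjusted p = 0.535). Slc7a8, a relative of Slc7a5, had 11.3 and 11.6 FPKM in the WT pair against 10.2 and 8.50 in the knockouts (adjusted p = 0.518). Slc16a10, a transporter of aromatic amino acids and thyroid hormone, had 0.824 and 0.890 FPKM in the WT pair against 0.866 and 1.85 in the knockouts (adjusted p = 0.586).

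Ttr, the thyroxine carrier transthyretin made by choroid plexus, had 144 and 475 FPKM in the WT pair against 951 and 1005 in the knockouts, with limma's adjusted p of 0.470. The log2 difference was 1.90, and it depended on the WT library kept, at 2.75 without WT B and 1.04 without WT A. Its direction was that of 5 of the 6 choroid plexus markers given above. The part of choroid plexus tissue in the Ttr difference was not tested. Dio1, the deiodinase gene of liver and kidney, was listed at 0 in 3 libraries and at 0.0183 FPKM in knockout B.

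Genes for making selenoproteins, the class to which the deiodinases belong, and for the turnover of type 2 deiodinase were near their WT levels on balance. All 10 were tested and 0 called, with a median log2 difference of 0.0062. The elongation factor gene Eefsec, which brings selenocysteine to the ribosome, had 8.57 and 8.27 FPKM in the WT pair against 7.78 and 5.31 in the knockouts (log2 difference -0.34 ± 0.18, SE; limma's adjusted p = 0.547). Trnau1ap, whose product associates with the selenocysteine tRNA, had 29.1 and 25.7 FPKM in the WT pair against 23.7 and 22.9 in the knockouts (adjusted p = 0.531). Wsb1, a subunit of a ubiquitin ligase for type 2 deiodinase, had 67.2 and 62.6 FPKM in the WT pair, and 66.8 and 84.3 in knockouts A and B.

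Among 15 receptor partners and cofactors the median log2 difference was 0.041, and Rxrg differed most. Rxrg, the retinoid X receptor gamma gene, had 25.4 FPKM in WT A, 24.1 FPKM in WT B, 18.5 FPKM in knockout A and 7.98 FPKM in knockout B. Both knockout libraries lay below both WT libraries, and the log2 difference came to -0.96 ± 0.38 (SE; limma's adjusted p = 0.499). It was -0.40 without knockout B and -1.52 without knockout A, and thus differed between the knockout libraries. Rxra and Rxrb, the genes of the other retinoid X receptors, were instead above both WT libraries, Rxra with 5.30 and 5.15 FPKM in the WT pair against 5.86 and 7.70 in the knockouts and Rxrb with 34.6 and 35.3 FPKM in the WT pair against 37.6 and 39.7 in the knockouts. The corepressor gene Ncor1, whose product holds unliganded receptors silent, had 41.1 and 40.9 FPKM in the WT pair against 39.0 and 40.2 in the knockouts. The coactivator gene Ncoa3 had 5.56 and 6.43 FPKM in the WT pair against 6.75 and 8.85 in the knockouts (adjusted p = 0.531).

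Genes that thyroid hormone is known to raise in rodent brain showed no common direction. Of 14 genes 12 were tested, and their median log2 difference was -0.010. Of these 12, 3 lay below both WT libraries and 3 above, against 21.7% and 27.1% of all genes tested. Mag and Shh, which did not pass the filter on low values, read above both WT libraries at no more than 1.33 FPKM. Nrgn, the neurogranin gene of forebrain neurons, had 143 and 139 FPKM in the WT pair, and 140 and 46.1 in knockouts A and B (limma's adjusted p = 0.576) and was thus, like Crym and Slc17a7, far below the rest in knockout B alone. Sema7a, a semaphorin gene, had 38.5 and 35.0 FPKM in the WT pair against 24.3 and 28.5 in the knockouts, and the log2 difference came to -0.46 ± 0.12 (SE; limma's adjusted p = 0.449). Mbp, the myelin basic protein gene, had 12.5 FPKM in either WT sample against 13.5 and 19.2 in the knockouts.

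Of the 3 genes known to be lowered by the hormone, Dab1, an adaptor of reelin signalling, had 55.3 and 55.1 FPKM in the WT pair against 43.6 and 41.9 in the knockouts. The log2 difference came to -0.36 ± 0.09 (SE; limma's adjusted p = 0.439). Ncam1, a neural adhesion molecule gene, had 98.9 and 106 FPKM in the WT pair against 98.5 and 91.9 in the knockouts (adjusted p = 0.670), and Tnc, the tenascin gene, had 27.9 and 25.1 FPKM in the WT pair, and 18.4 and 43.7 in knockouts A and B.

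Trh, the thyrotropin-releasing hormone gene of the hypothalamus, had the lowest adjusted p of the 51 genes. It had 0.972 FPKM in WT A, 1.33 FPKM in WT B, 2.90 FPKM in knockout A and 3.01 FPKM in knockout B. Both knockout libraries lay close together above both WT libraries, and the log2 difference came to 0.88 ± 0.12 (SE; limma's adjusted p = 0.400). Its direction was that of 8 of the 9 hypothalamic markers given above. The part of hypothalamic tissue in the Trh difference was not tested. Trhde, the gene of the enzyme that degrades this hormone, had 2.47 and 2.07 FPKM in the WT pair against 2.76 and 2.78 in the knockouts (adjusted p = 0.538). The thyrotropin beta gene Tshb stayed at or below 0.349 FPKM, and Cga, the gene of its partner subunit, was listed at 0 in all libraries.

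**Figure D4:**
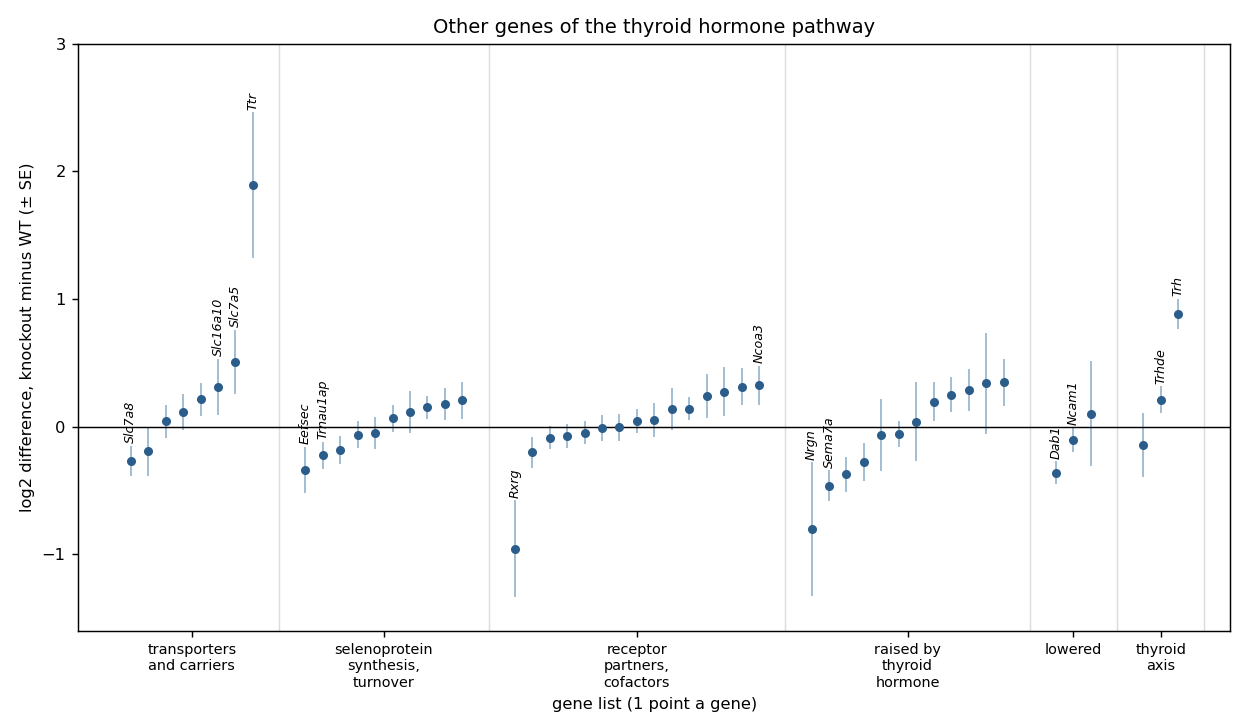
Log2 difference between knockout and WT in log2(FPKM + 1), with its SE, for the 51 tested genes of the pathway outside the 8 (1 point a gene, grouped by list and sorted within each). Ttr (1.90), Trh (0.88) and Rxrg (-0.96) lie farthest from 0, and none passed limma's test over all genes.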

How the data were processed

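Per the labels' protocols, DNase-treated, column-purified total RNA of postnatal day 1 brain went into Illumina libraries. Cufflinks 2.1.1, TopHat2 2.0.11, cutadapt and bcl2fastq 2.17, with the build mm9, are listed per the submitters' processing notes, and their settings are not. The authors deposited FPKM, 1 value for each gene row in each library; that the unit is FPKM was inferred from these tools and the values. Coordinates are those of the table, with starts raised by 1.

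FPKM values are not counts, so log2(FPKM + 1) was fitted for 12703 rows with a mean FPKM of 1 or more in limma 3.58.1 (R 4.3.3; lmFit, eBayes without trend), knockout against WT, no covariate, two-sided, Benjamini-Hochberg over all genes tested. The calculation was tested on simulated data. Each SE of a log2 difference is limma's moderated one, with the gene's variance drawn towards a value shared by all genes. An exact permutation test of 2 against 2 cannot go below 0.333. The 8 genes and all lists were chosen with earlier results of these data known. Named are the 8 genes, Cic, the hormone transporters Slc16a10, Slc7a5 and Slc7a8, Dio1, the 2 tested genes of each list with the largest difference, and the 5 genes most like Dio2; other names (Cldn5, Slc17a7, Tubb3, Wsb1, Rxra, Rxrb, Ncor1, Mbp, Tnc, Tshb, Cga and the remaining markers) were picked after their values were seen. A further gene under this rule is counted but not reported here. Promoter sequences are from RefSeq (GRCm38.p6); 5 of the 8 genes matched. Alternatives covered the pseudocount, filter, scaling, limma's trend, the replicate letter as a block, rows with a listed 0, and each library left out.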

Additional observations from a re-analysis of the deposited data

How the results depend on the processing

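The log2 difference of Dio2 was -0.86, and it was -1.14 with a pseudocount of 0.1 and -0.42 with a pseudocount of 5. Both knockout libraries lay below both WT libraries when the gene was chosen. No pseudocount or left-out library could therefore change its sign, and nothing is read from the sign. A filter at a mean FPKM of 5 removed Dio2, Dio3, Thrb and Hr. With each library left out in turn Dio2 lay between -0.94 and -0.78. The differences of Dio3, Slco1c1, Thra and Crym rested on 1 knockout library: without knockout B they were 1.07, 0.031, -0.048 and -0.052, and without knockout A 0.0038, -1.42, -0.42 and -1.48. Klf9 went to 0.0076 without knockout B and -0.0084 without WT B, and to -0.42 and -0.40 without knockout A and WT A. Thrb and Hr were at -0.85 and -0.33 with a pseudocount of 0.1 and at -0.18 and -0.11 with 5. Over all genes limma called 6, and 0 when the 13 rows that pair a listed 0 with a value of at least 10 FPKM elsewhere were left out (1299 at an unadjusted p under 0.05); with each library left out it called 4 to 4305. Of the 51 further pathway genes 0 were called, and 0 to 24 with each library left out; the 1 called without WT B was Ttr, and the 24 were called without knockout A. With the replicate letter as a block limma called 7 genes and 0 of the 51. The correlation of same-letter deviations across 12703 genes was -0.014. With 2 libraries in each group this cannot show whether the letters pair the libraries. Unknown depth leaves the counting error of low genes such as Thrb and Dio3 unmeasured.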
